A study of Mus musculus with 2 samples.

Results

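The genes encoding the proteins of the cytosolic ribosome were followed through the cell types of the newborn mouse dentate gyrus. Members were taken by symbol, as every listed gene that begins with Rpl or Rps and a digit, with Rplp or with Rpsa, leaving out the ribosomal S6 kinase genes (Rps6k). This gave 95 of the 31053 genes in the tables. They divide into 31 small-subunit and 46 large-subunit proteins, called the 77 canonical members here, 8 paralogues, 9 pseudogenes and Rps19bp1, which binds a ribosomal protein and is not one. Over both libraries 90 of the 95 had at least 50 UMIs (unique molecular identifiers, each standing for 1 captured transcript). Of the other 5, Rpl36-ps4 had no UMI in either library, Rpl10l had 1 in control and 0 in KO, and Rpl3l had 1 in each. Rpl9-ps1 had 3 and 2, and Rpl39l had 30 and 8.

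Cells of the dentate gyrus at postnatal day 2 were profiled from hGFAP-Cre;Kdm6bF/F mice, in which Cre removes a flanked stretch of the histone demethylase gene Kdm6b and whose library is called KO, and from littermate controls labelled WT, whose alleles the labels do not spell out further. The label gives 2 animals per genotype, which make up 1 library each, so no p-value can be had and every interval below covers counting error only. Values compare 2 libraries and cannot tell genotype from library, animal or sex. The hGFAP promoter drives Cre in radial glia, so their neuronal and glial progeny can inherit the deletion, while endothelial cells, microglia and blood cells have other origins. Which of the classes below carry the deletion was not measured.

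Each ribosome carries 1 copy of most of these proteins, and cells make them in step with ribosomal RNA. Their mRNAs are among the most abundant of growing and dividing cells and typically begin with a terminal oligopyrimidine (TOP) tract, a C at the cap followed by a run of pyrimidines, through which mTOR and LARP1 set their translation. In the dentate gyrus, growth of this kind accompanies the passage from radial glia through intermediate progenitors and neuroblasts to granule neurons.

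The TOP tract is shown first because it is the known common feature of the family and the symbols did not select for it. RefSeq start sites (GRCm38.p6) were available for 57 of the 77 canonical members. A C followed by at least 4 pyrimidines stood exactly at the annotated first base on the gene's strand in 13 of the 57 (22.8%), against 813 of 27025 genes in the same table (3.01%). Such a tract began within 10 bases either side of the start in 34 of 57 (59.6%), against 34.4% of all genes. Nuclear genes of the mitochondrial ribosome, which do not belong to the family, had it at the exact base in 0 of 69 and within 10 bases in 31 of 69 (44.9%). The lines give 30 bases before and 20 from the annotated first base of members described below, with the tract in capitals where one was found within 10 bases. The first 4 have one and the last 3 have none in that window, which says only that these letters are missing there.
Rpl38 chr11:114668550-114668599, plus strand: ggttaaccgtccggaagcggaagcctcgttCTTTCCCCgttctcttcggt
Rps27 chr3:90213629-90213678, minus strand: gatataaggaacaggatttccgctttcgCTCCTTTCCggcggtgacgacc
Rpl22l1 chr3:28805478-28805527, plus strand: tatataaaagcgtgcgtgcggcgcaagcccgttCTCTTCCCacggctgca
Rps19 chr7:24884883-24884932, plus strand: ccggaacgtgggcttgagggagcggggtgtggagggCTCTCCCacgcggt
Rps28 chr17:33824543-33824592, minus strand: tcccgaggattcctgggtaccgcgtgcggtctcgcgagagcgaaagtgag
Rplp0 chr5:115559437-115559486, plus strand: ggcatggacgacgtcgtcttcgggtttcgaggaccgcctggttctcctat
Rpsa chr9:120127736-120127785, plus strand: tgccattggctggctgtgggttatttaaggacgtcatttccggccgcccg
In Rpl38 the tract starts on the annotated first base, in Rpl22l1 3 bases downstream and in Rps19 6 bases downstream. In Rps27 the capitals start 2 bases upstream and run across the annotated first base. That base is itself a C followed by at least 4 pyrimidines, so Rps27 also counts as an exact start. Rpl38, with a tract in that window, and Rps28, with none found there, are both described below with higher values in KO. Whether the tract goes with the ratio between libraries was not tested.

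After filtering, 2954 control cells carried 31528063 UMIs, with a median of 7347.5 per cell, and 1931 KO cells carried 25419008, with a median of 9267. Cells were clustered without the members and named from marker lists; 7 classes had at least 50 cells in each library, of which 5 have names and 2 go by number. Prox1 and Neurod1, known from granule neurons, were among the 10 leading genes of cluster 2, and Aldh1l1, Aqp4 and Fabp7, known from astrocytes and radial glia, among those of cluster 4, and neither cluster met the naming rule. In control, 990 cells had Y-linked UMIs and no Xist and 1300 had Xist and no Y-linked UMI, against 0 and 1816 in KO, so sex differs between the libraries. Kdm6b itself was at 58.0 CPM (UMIs of a gene scaled to a fixed total of the class) in control and 57.3 in KO over all cells; it was at 42.0 and 25.7 in pyramidal neurons and at 51.2 and 45.8 in radial glia. The labels do not say which exons are flanked, so a count of 3' ends need not show the deletion. The 2 libraries shared 6 cell barcodes.

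Ribosomal protein genes supplied between 6.67% and 17.3% of the UMIs of a class in control. Endothelial cells had the highest share, 17.3% (95% exact interval 17.26 to 17.33, 198 cells) in control and 17.3% (17.31 to 17.38, 198 cells) in KO. GABAergic neurons had the lowest of the 7 classes, 8.04% (7.995 to 8.08, 150 cells) and 8.44% (8.40 to 8.47, 158 cells). Between them came radial glia/neural stem cells with 12% and 11.8%, cluster 2 with 11.6% and 12.02%, and, all close together in control, ependymal cells with 9.26%, cluster 4 with 9.22% and pyramidal neurons with 9.06%. In KO the order of those last 3 turned: pyramidal neurons had 10.1%, ependymal cells 8.97% and cluster 4 8.27%. The share therefore spread 2.15-fold over the classes in control and 2.10-fold in KO. Depth did not follow the same order (Spearman rho of share and median UMIs -0.036 in each library, 7 classes that share a library).

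**Figure D1:**
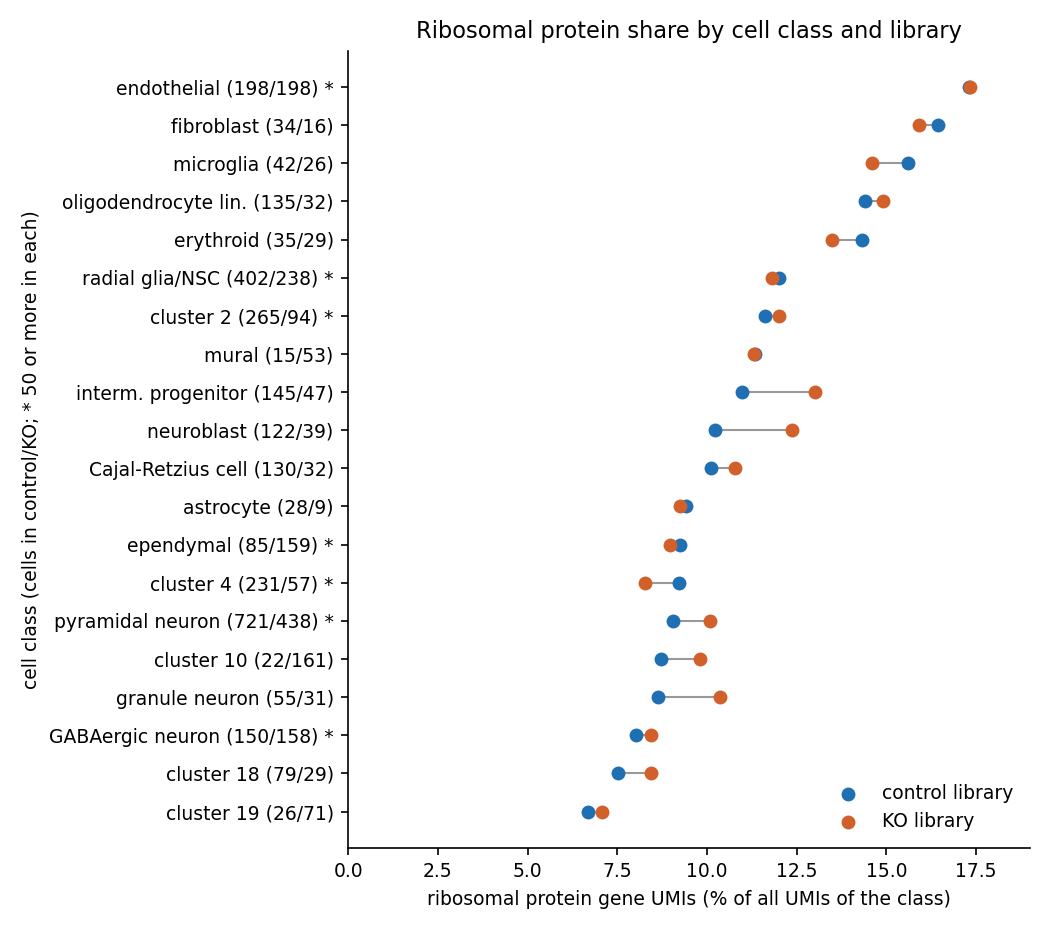
Share of all UMIs of a class that fell on the 95 members (x axis, percent) in the control (blue) and KO (orange) library; classes are on the y axis with their cell numbers, an asterisk marks the 7 with at least 50 cells in each library, and cluster 25 is left out. Endothelial cells sit at 17.3% in both libraries, while intermediate progenitors, neuroblasts, granule neurons and pyramidal neurons have the orange point to the right.

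Smaller classes extended this range. Fibroblasts (16.5% and 15.9%, 34 and 16 cells) and microglia (15.6% and 14.6%, 42 and 26 cells) came close to endothelial cells, and oligodendrocyte lineage cells had 14.4% and 14.9% (135 and 32 cells). Cluster 19, led by Wnt8b, Lmx1a and Rspo3, had the lowest share of all, 6.67% and 7.08% (26 and 71 cells). Endothelial cells, fibroblasts, microglia, the oligodendrocyte lineage and erythroid cells (14.3% and 13.5%) were the 5 highest classes in both libraries when cluster 25 is left out. Cluster 25, 34 and 14 cells of low depth, gave 8.50% and 17.7% as sums but 8.587% and 8.998% as medians over cells, so that few cells make its sum and it is not used further.

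Neurogenic classes differed in share, without a single order from progenitor to neuron. In control, radial glia/neural stem cells had 12%, intermediate progenitors 11.0% (145 cells), neuroblasts 10.2% (122 cells) and granule neurons 8.64% (55 cells), with intervals of counting error that do not overlap. Cluster 2, with Prox1 and Neurod1 among its leading genes and 7 neuroblast markers detected, lay above the intermediate progenitors at 11.6%, and radial glia cluster 8 lay below the neuroblasts at 9.21%. The class named neuroblast was led by Igfbpl1, Sema3c, Calb2 and Meis2, with no Prox1 among its 10 leading genes, so its place in the granule lineage is not given by these data. In KO the values were 11.8% in radial glia, 13% in intermediate progenitors (47 cells), 12.4% in neuroblasts (39 cells) and 10.4% in granule neurons (31 cells). These last 3 classes have fewer than 50 KO cells each, and their median depths were similar in both libraries for granule neurons (8266 and 8006 UMIs) but higher in KO for neuroblasts (3464 and 4790).

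Between libraries the share was nearest to equal in endothelial cells and furthest from it in pyramidal neurons and cluster 4 among the 7 classes. The log2 ratio of KO to control was 0.16 in pyramidal neurons (ratio 1.11 to 1.12), 0.070 in GABAergic neurons (1.04 to 1.06) and 0.050 in cluster 2 (1.02 to 1.05). In endothelial cells it was 0.0045, with an interval that holds 1, while their clusters 5 and 16 had -0.0095 (0.990 to 0.997) and 0.097 (1.06 to 1.08). It was -0.023 in radial glia/neural stem cells (0.979 to 0.990), -0.045 in ependymal cells (0.962 to 0.976) and -0.16 in cluster 4 (0.886 to 0.908). The cluster 4 value differed with depth. It was -0.38 in cells of fewer than 5000 UMIs (77 and 19 cells) and -0.064 from 5000 to under 10000 UMIs (141 and 30 cells). Ratios above that of pyramidal neurons came from classes with fewer than 50 cells in a library. They were 0.25 in intermediate progenitors, 0.28 in neuroblasts and 0.26 in granule neurons, each with fewer than 50 KO cells. Clusters 18 (79 and 29 cells) and 10 (22 and 161 cells) had 0.17 each. All are well below 1.5-fold (0.58 on the log2 scale).

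Pyramidal neurons had the higher KO share in each of their 3 clusters, by 0.12, 0.063 and 0.21, and in each of 4 depth bins. In cells of fewer than 5000 UMIs the share was 8.64% in control and 10.4% in KO, and in those of 20000 UMIs or more it was 8.99% and 9.78%. Cluster 1, with the smallest ratio, held 312 of the control and 98 of the KO cells, and with KO clusters weighted as in control the class ratio was 0.099 in place of 0.16. Median depth was 16179 UMIs per cell in control and 20154 in KO, and its part in the remaining difference was not tested beyond the bins.

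For radial glia/neural stem cells the class value hid its clusters. Cluster 6, which is in cell cycle, had 12.2% in control and 13.4% in KO (log2 0.13). Cluster 11, led by Thrsp, Tfap2c and Wnt8b, had 12.7% and 14.7% (0.21), and cluster 8, led by Entpd2, Fbln2 and Clu, had 9.21% and 9.27% (0.0098). None of the 3 was lower in KO. Cluster 8, the lowest in share, made up 21.6% of the control cells of the class and 54.2% of the KO cells, while the dividing cluster 6 made up 45.3% and 26.9%. With clusters weighted as in control, the class ratio was 0.14 instead of -0.023, so the sign of the class value rests on the mix of clusters. Single genes in radial glia are given below from the unweighted class, and the part of the mix in their values was not tested.

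**Figure D2:**
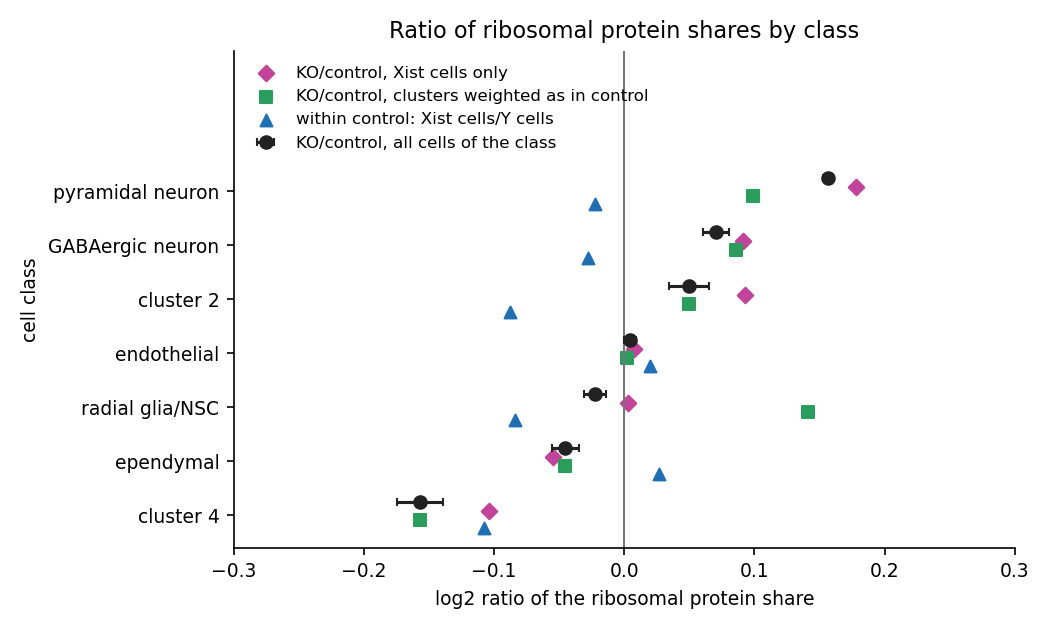
Log2 ratio of ribosomal protein shares (x axis) in the 7 classes (y axis): black circles compare KO with control with 95% counting intervals, diamonds use Xist cells of both libraries, squares weight KO clusters as in control, and triangles compare Xist with Y cells inside the control library. Pyramidal neurons lie at 0.16 with a triangle near 0, radial glia move from -0.023 to 0.14 by weighting, and cluster 4 has its triangle at -0.11.

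The control library holds cells of both sexes, and so of more than 1 animal, which gives a difference inside 1 genotype and 1 library. The share in Xist cells over that in Y cells had a log2 ratio of -0.022 in pyramidal neurons, 0.020 in endothelial cells and -0.028 in GABAergic neurons. It was -0.084 in radial glia/neural stem cells, -0.087 in cluster 2 and -0.11 in cluster 4. In neuroblasts it was -0.19 (71 and 27 cells) and in oligodendrocyte lineage cells -0.24 (55 and 43 cells). The ratio between libraries was further from 0 than that within control in pyramidal and GABAergic neurons, cluster 4, ependymal cells (-0.045 against 0.026), intermediate progenitors (0.25 against -0.050), neuroblasts and granule neurons (0.26 against -0.020). It was nearer to 0 in radial glia, endothelial cells, cluster 2, oligodendrocyte lineage cells (0.048 against -0.24) and erythroid cells (-0.087 against 0.12). Among Xist cells alone the KO ratio was 0.18 in pyramidal neurons, 0.26 in intermediate progenitors, 0.33 in neuroblasts, 0.29 in granule neurons, 0.0032 in radial glia and -0.10 in cluster 4.

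The balance of the subunits was nearly the same in both libraries. The small-subunit members made up 40.7% to 43.4% of canonical UMIs over the 7 classes in control and 40.6% to 43.3% in KO. Over 14 points, 7 classes in 2 libraries, the level of a canonical member followed that of the other members with a median Pearson r of 0.890 on the log2 scale. Rps26 (0.35) and Rpsa (0.47) followed least. The points share 2 libraries and the members are parts of the same totals, so these are descriptions.

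In all cells together, the most abundant canonical members of the control library were Rpl13 with 3355 CPM (KO 3126), Rpl41 with 2777 (3377), Rps19 with 2773 (2823), Rps14 with 2497 (2129) and Rplp0 with 2309 (2320). The assay counts 3' ends, so these levels were not divided by length. The fewest UMIs fell on Rpl13a with 369 (395), Rpl27 with 398.7 (425), Rpl22 with 412 (428), Rps21 with 453 (562) and Rpl5 with 531 (505). Captured mRNA thus differed widely between proteins that the ribosome holds in equal number. Of the canonical members 14 share at least 50% of the 31-base words in the last 400 transcript bases with another listed gene, among them Rpl41, Rpl10, Rpl36a, Rps27, Rplp1, Rplp2, Rpl27 and Rpl9, so their counts may be split or lost; 50 share none.

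Few members passed 1.5-fold between libraries. Over all cells 0 of the 90 measured were higher and 1 was lower, Rpl7a-ps5, a pseudogene with 125 and 49 UMIs, against 11% of all 14623 genes in either direction. In pyramidal neurons 2 of 90 passed, both lower pseudogenes (background 8.87%), and in endothelial cells 1 of 89 (6.79%). In GABAergic neurons it was 1 of 86 (7.29%), in ependymal cells 2 of 86 (11.8%) and in radial glia 1 of 86 (19.4%). In cluster 2 it was 3 of 84 (13.6%) and in cluster 4 2 of 85 (13.9%). The members are more abundant than most genes, and among genes with at least 1000 UMIs the background was 2.52% in pyramidal neurons and 1.16% in endothelial cells. No canonical member passed in 6 of the 7 classes, and Rps21 was the only one in cluster 2 (420 and 268 UMIs, log2 0.59). In the classes with fewer than 50 KO cells, 5 of 82 passed in intermediate progenitors (17.5%), 5 of 81 in neuroblasts (12.3%) and 4 of 81 in granule neurons (23%). Rps28 was past the limit in all 3, with 426 and 255 UMIs (0.77), 330 and 238 (0.80) and 287 and 240 (0.62), and Rps29 in the first of them (0.77) and in neuroblasts (0.74).

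Below that size most canonical members leaned the same way in pyramidal neurons. There 73 of 77 canonical members had a log2 ratio above 0, with a median of 0.16, against 45.9% of all genes and a median of -0.02. In GABAergic neurons it was 53 of 77 (all genes 45.3%), in cluster 2 52 (47.4%) and in endothelial cells 28 (47.2%). In radial glia it was 26 (45.6%), in ependymal cells 22 (51.3%) and in cluster 4 10 (47.1%). In the small classes it was 76 of 77 in intermediate progenitors (45.4%), 75 in neuroblasts (47.5%) and 70 in granule neurons (46.6%). Among genes with at least 1000 UMIs the median log2 ratio was -0.018 in pyramidal neurons, 0.0072 in GABAergic neurons and 0.020 in cluster 2. It was -0.025 in endothelial cells, -0.093 in radial glia, -0.084 in ependymal cells and -0.11 in cluster 4. Canonical medians in the same order were 0.16, 0.062, 0.043, -0.026, -0.046, -0.084 and -0.16. In the small classes it was 0.14, 0.14 and 0.088, beside canonical medians of 0.24, 0.27 and 0.26. Members measured against the same total are not independent of each other.

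Genes of short ribosomal proteins had higher ratios than those of long ones in each of the 7 classes. The 11 canonical members of fewer than 110 codons, a limit chosen after their values were seen, are Rpl41, Rpl39, Rps29, Rps28, Rpl38, Rps21, Rps27, Rpl37a, Rpl37, Rpl36 and Rpl36a. Their median log2 ratio was 0.34 in pyramidal neurons, 0.28 in radial glia, 0.27 in GABAergic neurons, 0.26 in endothelial cells, 0.21 in ependymal cells, 0.29 in cluster 2 and 0.11 in cluster 4. That of the 66 longer members was 0.14, -0.060, 0.030, -0.058, -0.10, 0.036 and -0.17 in the same order. The shorter ones were higher in KO in 11 of 11 cases in 6 classes and in 10 of 11 in cluster 4. Just inside the limit Rpl36a, with 106 codons, had 0.13 over all cells, and just outside it Rpl35a, with 110, had 0.23.

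Rps29, a zinc-binding protein of the small-subunit head, was among the short members furthest above 0. It had 3264 CPM in control and 4714 in KO endothelial cells (log2 0.53), 1438 and 2064 in pyramidal neurons (0.52) and 1830 and 2336 in radial glia (0.35). The KO value was the higher in all 7 classes, from 0.22 in cluster 4 upwards. Rpl38, a large-subunit protein known for its part in translating Hox mRNAs, had 2801 and 4087 in endothelial cells (0.54), 1456 and 1890 in pyramidal neurons (0.38) and 903 and 1163 in radial glia (0.37). Rps28 had 1213 and 1672, 633 and 941, and 694 and 911 in the same classes, ratios of 0.46, 0.57 and 0.39, and its median over the 7 classes (0.45) was above that of Rps29 (0.43). For Rps29, Rps28 and Rpl37a the counting interval lay above 1 in all 7 classes, which 11 of 3400 genes measured in each class did (0.324%). Those 3400 genes needed only 50 UMIs in each class. Intervals narrow with more UMIs, so that share is not one of equally abundant genes. A log2 ratio above 0 in all 7 classes was found for 10 canonical members, the short ones without Rpl39, against 4.62% of genes, and one below 0 for Rps14 and Rpl13, against 5.65%.

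Among longer members Rps14 was the counterpart. This small-subunit protein had 4889 and 4075 CPM in endothelial cells (-0.26), 2558 and 1901 in ependymal cells (-0.43) and 1742 and 1639 in pyramidal neurons (-0.09). Its interval lay below 1 in all 7 classes, which 3 of 3400 genes did (0.0882%), again without a match for abundance. In endothelial cells Rpl3, Rps3 and Rps6, a target of the S6 kinases, had log2 ratios of -0.20, -0.22 and -0.18. Other members furthest from equality in a class were Rpl12 in radial glia (633 and 513, -0.30), and Rps2 (1618 and 2003, 0.31), Rpl18 (665 and 531, -0.32) and Rpl15 (1404 and 1161, -0.27) in ependymal cells. Rpl35a had 774 and 1016 in pyramidal neurons (0.39), and Rpl7a had a log2 ratio of -0.20 in cluster 2. Rpl9-ps6, whose 3' end is nearly all shared with Rpl9, had 215 and 105 UMIs in pyramidal neurons (-0.59).

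Across the 77 canonical members the log2 ratio was lower where log2 coding length was higher. Pearson r was -0.77 in endothelial cells, -0.72 in radial glia, -0.68 in GABAergic neurons, -0.60 in pyramidal neurons and -0.50 in ependymal cells. With Xist cells of both libraries it ran from -0.77 in endothelial cells to -0.50 in ependymal cells. These points share their libraries and totals. Within the control library, Xist against Y cells, r ran from -0.26 in GABAergic neurons to 0.11 in ependymal cells, and the medians of short and long members there were 0.019 and 0.018 in endothelial cells. Genes outside the family of fewer than 110 codons with at least 1000 UMIs had a median of 0.015 in endothelial cells (136 genes) and -0.047 in pyramidal neurons (217 genes). With a lower minimum of 200 UMIs, medians of genes outside the family also differed with length in some classes. In radial glia they were 0.00038 below 110 codons, -0.064 from 110, -0.10 from 200, -0.14 from 400 and 0.026 from 800 codons. In cluster 2 they were 0.078, -0.023, -0.052, -0.088 and 0.014. In endothelial cells they were 0.018, -0.067, -0.068, -0.011 and 0.13, with the highest in the longest genes. The gap between short and long members thus stood between libraries, also in endothelial cells. What sets it was not tested, and genotype and library preparation cannot be told apart.

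**Figure D3:**
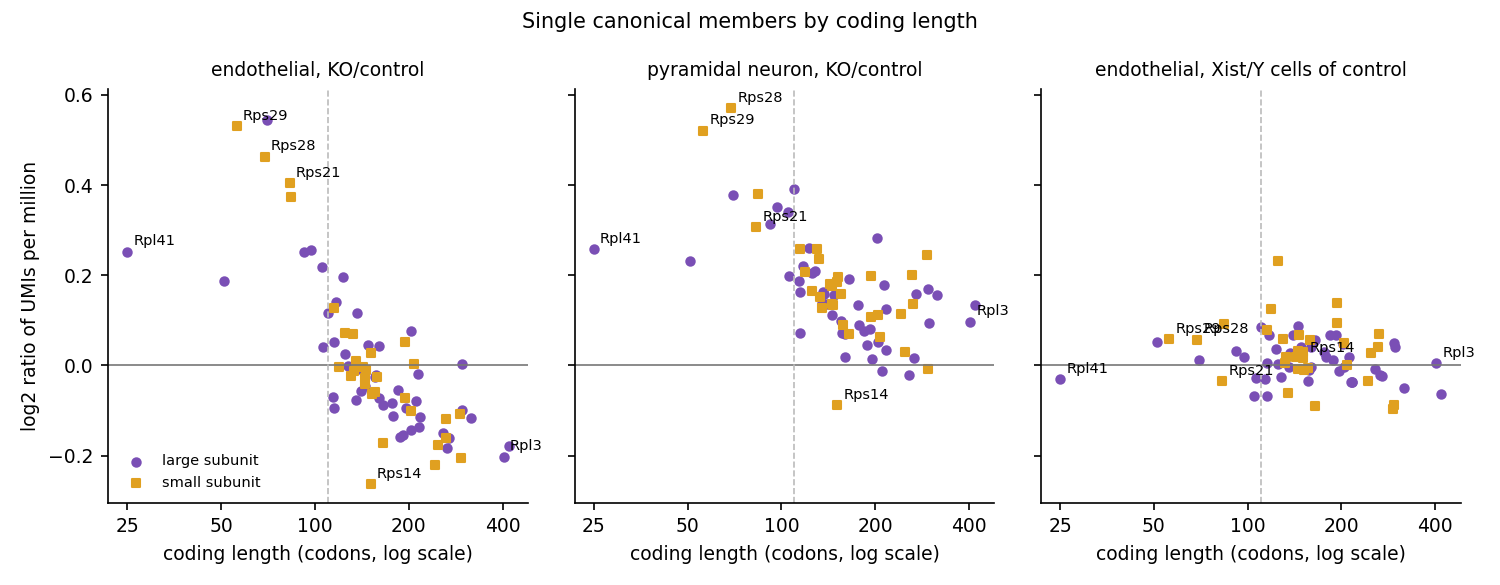
Log2 ratio of CPM of the 77 canonical members (y axis) against coding length in codons (x axis, log scale), for KO over control in endothelial cells (left) and pyramidal neurons (middle) and for Xist over Y cells of control endothelial cells (right); circles are large-subunit and squares small-subunit members, and the dashed line is at 110 codons. Points left of the line lie above 0 in the left and middle panels, and Pearson r is -0.77, -0.60 and -0.18 from left to right.

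Counted apart, the 11 short members held 2.48% of UMIs in control and 3.15% in KO endothelial cells, and the 66 longer ones 14.6% and 14%. The equal total share of that class thus sums 2 opposite differences. In pyramidal neurons both sets were higher in KO, 1.30% and 1.65% for the short and 7.60% and 8.30% for the long, so that the class ratio was 0.13 with longer members alone. In GABAergic neurons the longer ones were at 6.78% and 6.91%, a log2 ratio of 0.027, and in cluster 2 at 9.99% and 10.1%, a ratio of 0.0091 whose interval (0.995 to 1.02) holds 1. In radial glia the longer ones were at 10.3% and 9.82%, and in cluster 4 at 7.77% and 6.75%.

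The P proteins form the stalk that recruits translation factors, with Rplp0 at its base. Rplp0 had 1745 CPM in control and 1944 in KO pyramidal neurons (0.16), 3937 and 3631 in endothelial cells (-0.12) and 2080 and 1627 in cluster 4 (-0.35). Rplp1 had 1319 and 1503 (0.19) and Rplp2 1022 and 1144 (0.16) in pyramidal neurons. All 3 were thus higher in KO pyramidal neurons, as were 73 of the 77 canonical members there, whose median was 0.16. Rpl5 and Rpl11, which with 5S RNA can bind MDM2 and so stabilise p53, had 498 and 531 (0.09) and 1149 and 1223 (0.09) in pyramidal neurons. In radial glia Rpl5 had 655 and 550 (-0.25) and Rpl11 1573 and 1566 (-0.01).

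Rps4x, Rpl10, Rpl36a and Rpl39 are X-linked, and the libraries differ in sex. Rps4x had 1373 and 1577 in pyramidal neurons (0.20) and 1800 and 1386 in cluster 4 (-0.38). Rpl10 had 1403 and 1588 in pyramidal neurons (0.18) and 2043 and 2016 in endothelial cells (-0.02). Neither of these had the same sign in all 7 classes. Rpl36a was above 0 in all 7, from 0.021 to 0.23, and Rpl39 ran from -0.044 in cluster 4 to 0.28, with its interval above 1 in 6 of 7. Within control, Xist over Y cells gave log2 ratios over all cells of 0.014 for Rps4x and -0.028 for Rpl10. Those of Rpl36a and Rpl39 were -0.0031 and 0.016. Single classes spread wider, for Rpl36a from -0.12 in cluster 2 to 0.19 in GABAergic neurons. The part of sex in the library ratios was not tested.

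The make-up of the ribosomal protein UMIs differed between cell classes. Each member was taken as a percentage of canonical UMIs, and its highest class over its lowest gave the spread. Rps27l, the p53-inducible paralogue of Rps27, spread most, 6.59-fold in control and 6.04-fold in KO. It was at 1.06% in control and 0.901% in KO ependymal cells, and its lowest values were 0.162% in control GABAergic neurons and 0.149% in KO pyramidal neurons. Rpl7l1, a paralogue with a part in ribosome assembly, spread 3.37-fold in control, from 0.031% in ependymal cells to 0.104% in radial glia.

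Among canonical members Rpsa spread most. Rpsa, which is also known as the laminin receptor, was at 1.47% in control GABAergic neurons and 0.502% in ependymal cells, a 2.93-fold spread (KO 2.46). Rps26 (2.43), Rps27 (2.42) and Rpl10 (2.24) came next, of which Rps27 was highest in ependymal cells and Rpl10 and Rps26 lowest there. Rpl23 (1.10), Rpl9 (1.10), Rps23 (1.18) and Rpl22 (1.2) kept the most even shares in control. In KO Rpl22 ran wider, from 0.319% in GABAergic neurons to 0.482% in ependymal cells. In control, ependymal cells thus held the highest or lowest value of each of the 6 widest.

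**Figure D4:**
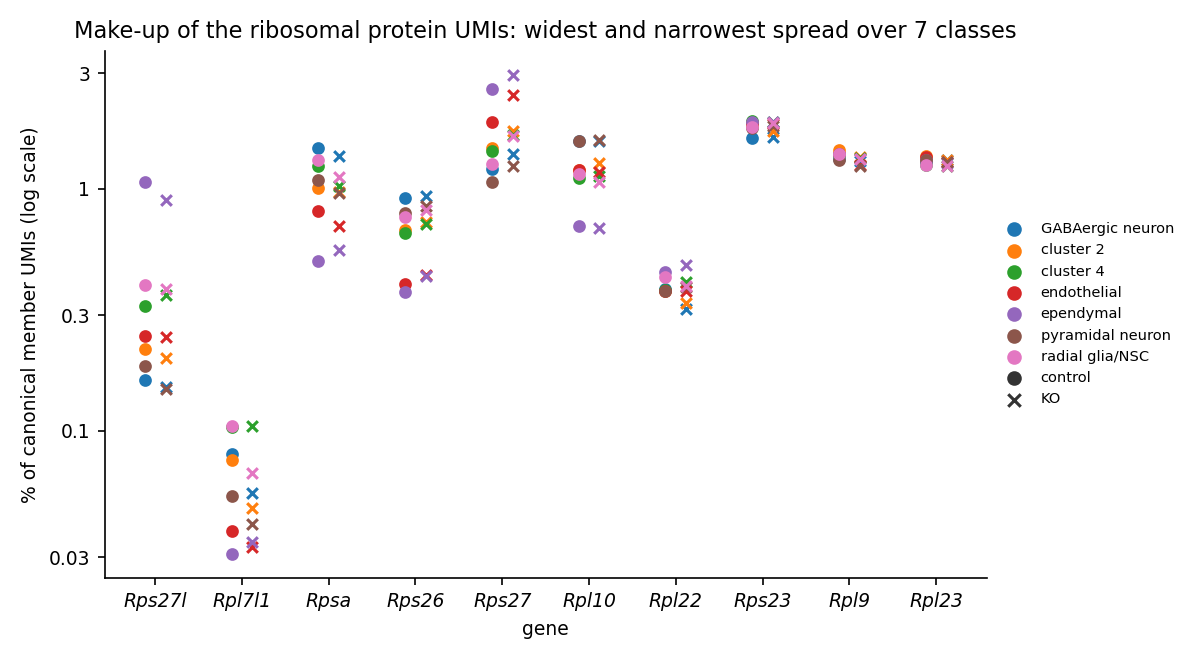
Percentage of canonical member UMIs (y axis, log scale) on the 6 members or paralogues with the widest and the 4 with the narrowest spread over 7 classes in control. Circles are control, crosses KO, and colours the classes. Ependymal cells lie at the top for Rps27l and Rps27 and at the bottom for Rpsa, Rps26 and Rpl10 in control, and Rpl9 and Rpl23 hardly spread.

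Paralogues were set beside the gene they resemble. Rpl22l1, which can replace Rpl22 in the ribosome, was the more abundant of its pair in every class, with 68.9% of the pair's UMIs in control and 66.5% in KO over all cells. Its share was 74.7% and 77.9% in GABAergic neurons, 79.2% and 80.5% in cluster 19, and 70.1% and 64.8% in pyramidal neurons, where Rpl22 had 337 and 389 CPM and Rpl22l1 791 and 718. The 2 genes thus lay on opposite sides in that class, with log2 ratios of 0.21 and -0.14. Rps27l made up 29.2% and 23.3% of its pair in ependymal cells, 23.95% and 18.8% in radial glia and 11.5% and 9.08% in endothelial cells, a lower share in KO in each, beside a Rps27 that was itself higher in KO by 0.16, 0.36 and 0.37.

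Rpl36al held 29.3% and 28.4% of its pair in GABAergic neurons and 13.4% and 13.5% in endothelial cells. Both genes of that pair share most of their 3' ends with other listed genes, so its values are uncertain. Rps27 shares 98.7% of its 3' words with Rps27rt, while Rps27l shares none, so the shares of the Rps27 pair are uncertain too. Rpl7l1 was a minor partner, with 9.13% of its pair in control radial glia and 6.36% in KO. It was the only member that passed 1.5-fold there (295 and 124 UMIs, log2 -0.66), and it was also lower in cluster 2 (83 and 23 UMIs, -0.59) and in intermediate progenitors (106 and 16 UMIs, -1.18). The radial glia value was not weighted by cluster, and the mix of clusters there differs between the libraries. In ependymal cells Rpl7l1 had 35 and 64 UMIs and a log2 ratio of 0.11. The paralogues Rpl3l, Rpl10l and Rpl39l, known from muscle and testis, were at or near 0, and Rpl39l had 11 and 3 UMIs in endothelial cells.

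**Figure D5:**
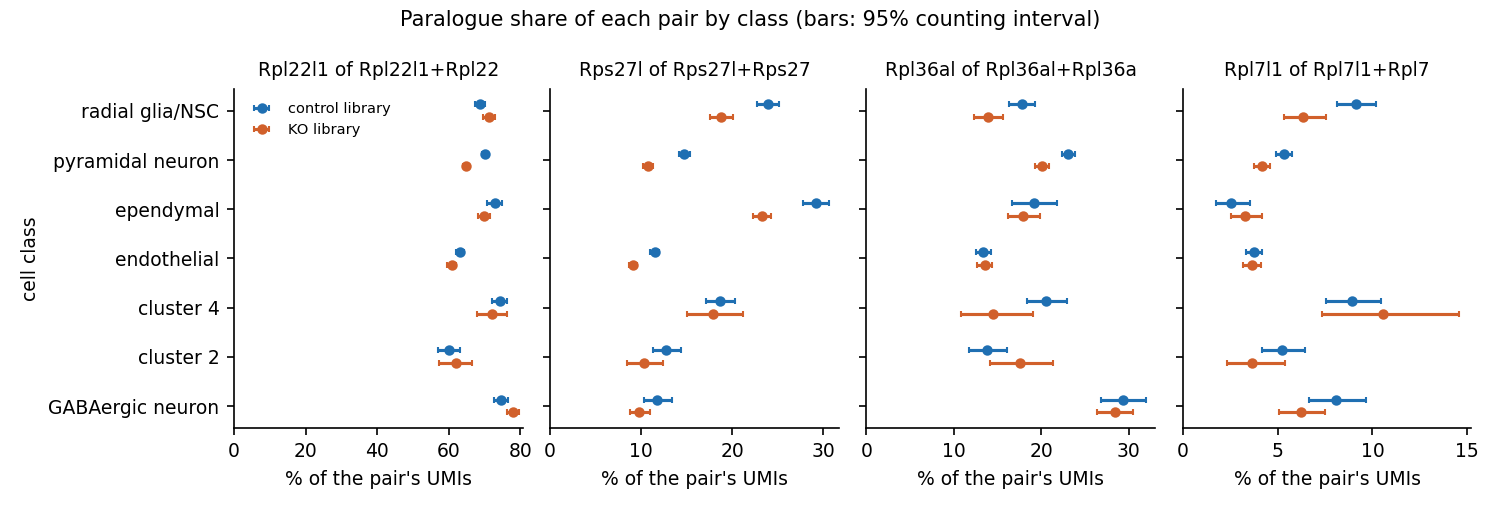
Share of the paralogue in the UMIs of a pair (x axis, percent) for 4 pairs in the 7 classes (y axis), with 95% exact counting intervals; blue is control and orange KO. Rpl22l1 is at 60.0% or more in all 7 classes, and the orange points of Rps27l lie to the left of the blue ones in all 7 classes.

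Partners of the ribosome that carry other names were set beside the canonical medians of 0.16 in pyramidal neurons, -0.046 in radial glia and -0.026 in endothelial cells. Fau, which encodes a ubiquitin-like fusion of a ribosomal protein, and Rack1, a scaffold on the small subunit, had log2 ratios of 0.14 and 0.21 in pyramidal neurons, and 0.02 and -0.16 in endothelial cells. Of the elongation factors, Eef1a1 had 2890 and 3403 CPM in pyramidal neurons (0.24) and 3210 and 3035 in endothelial cells (-0.08), and Eef2 had 0.11 and -0.10. Tpt1, another mRNA of the TOP kind, had 0.16 and -0.01. None of the 14 translation factors and chaperones passed 1.5-fold in any of the 7 classes, where 6.79% to 19.4% of all genes did, with a median of 0.09 in pyramidal neurons, -0.17 in radial glia and -0.20 in cluster 4, where all genes had -0.02, -0.04 and -0.02.

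Of 20 ribosome biogenesis factors measured in radial glia, 4 passed 1.5-fold as lower and 0 as higher, with a median of -0.35. Of all 8256 genes measured there, 758 passed as lower and 840 as higher, 19.4% in either direction. In pyramidal neurons 0 of 22 passed (all genes 8.87%), with a median of 0.12. Npm1, a nucleolar chaperone, had 1247 and 953 CPM (-0.39) in radial glia and 572 and 655 (0.20) in pyramidal neurons, and Ncl, a nucleolar protein that processes ribosomal RNA, had 686 and 549 (-0.32) and 355 and 411 (0.21). Lists of S and G2/M phase genes were lower in the same radial glia, 9 of 15 and 13 of 15 past 1.5-fold against the same 19.4%, and their part in the biogenesis values was not tested. The mitochondrial ribosome had 1 member higher and 1 lower of 77 in radial glia (all genes 19.4%, median of the list -0.17) and 0 of 78 past 1.5-fold in pyramidal neurons (all genes 8.87%, median of the list -0.06). Of 13 regulators of ribosomal protein synthesis, 1 was lower and 0 higher in pyramidal neurons (all genes 8.87%), where Rheb, an activator of mTOR, had 358 and 360.0 CPM (0.01) and Rps6kb1, an S6 kinase, 65.4 and 67.4 (0.04).

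Genes whose level resembled the summed members were sought among 6631 genes with at least 1000 UMIs, over the same 14 points. Those reported here are Gm10260 (Pearson r of 0.94), Mindy1 (0.94), Nampt (0.92), Adam10 (0.92), Eif3f, a subunit of an initiation factor (0.91), Kank3 (0.91), Ccdc12 (0.91), Tpm4 (0.91) and Ptpn12 (0.91). The endothelial points are the highest for the members in both libraries, so genes high in endothelial cells can score well on them alone.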

How the data were processed

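Per the labels' protocols, cells were dissociated with papain and 3' end libraries made with the 10x Chromium assay. The authors deposited raw UMI counts of each gene in each barcode; the submitters' processing notes name Cell Ranger 3.0.2, Seurat 3 and mm10, with no role stated. Barcodes needed 500 genes and 1000 UMIs or more, with no more than 10% of UMIs mitochondrial. The highest Scrublet scores, 0.8% per 1000 barcodes, were removed as doublets (75 and 36 cells), since Scrublet's own limit marked 11 and 14. Cells were clustered in scanpy 1.11.5 with leidenalg 0.10.2 (2000 variable genes, 30 components, 15 neighbours, resolution 1). A cluster took a type's name when at least 3 of its markers were detected and it had more of them among the 10 leading genes than any other type; where no type had any there, most of its list had to be detected. This rule was settled with the clusters in view. Counts were summed per class and library, scaled to all UMIs of the class, and compared with 0.5 UMI added and exact binomial intervals. Members with at least 50 UMIs were compared. The text names members chosen by name, the 5 most and 5 least abundant, the widest and narrowest spread, and the 3 most above and below per class, and partners by list; short members and pseudogenes outside this rule were named after their values were seen. Members and lists were chosen with earlier results of these data known. Alternatives used edgeR 4.0.16. Gene models for coding length and shared 3' ends were GENCODE M21, and start sites were RefSeq. Some results that the rule would name are not reported here.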

Additional observations from a re-analysis of the deposited data

Results flagged for a closer look

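The KO to control ratio of the ribosomal protein share lay on opposite sides of equality in different classes, each with a counting interval clear of 1. On the log2 scale it was above 0 in pyramidal neurons (0.16), GABAergic neurons (0.070) and cluster 2 (0.050). It was below 0 in radial glia/neural stem cells (-0.023), ependymal cells (-0.045) and cluster 4 (-0.16). By depth, cluster 4 had -0.38 in cells of fewer than 5000 UMIs and -0.064 from 5000 to under 10000 UMIs. None of the 3 radial glia clusters was below 0 (0.13, 0.0098 and 0.21), and that class had 0.14 with clusters weighted as in control. With 1 library per genotype the difference between classes was not tested. With the 66 longer canonical members alone it was 0.027 in GABAergic neurons and 0.0091 in cluster 2.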

How the results depend on the processing

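No paired analysis was possible because each genotype has 1 library. Several alternatives (weighting by control clusters, single clusters, longer members, members with their own 3' end, Y cells of control) were chosen after seeing the data. The pyramidal ratio (0.16) stayed above 0 in 21 of 21 alternatives. It was 0.15 at clustering resolution 0.5, with a 200-gene filter, without doublet removal and with no genes left out of the clustering, 0.14 at resolution 2 and under the stricter filter, 0.17 with 4000 variable genes and 0.16 with canonical members only. It was 0.20 as a mean per cell, 0.18 with cells thinned to 2000 UMIs or Xist cells only, 0.22 in cells with fewer than 3 cell cycle UMIs, 0.099 at the control mix, 0.13 with members of at least 110 codons, and 0.12, 0.063 and 0.21 in clusters 0, 1 and 3. The radial glia ratio (-0.023) changed sign in 9 of 21: 0.0030 with the 200-gene filter, 0.15 under the stricter filter, 0.024 when thinned, 0.0032 in Xist cells, 0.021 in cells with fewer than 3 cell cycle UMIs, 0.14 at the control mix, and 0.13, 0.0098 and 0.21 in clusters 6, 8 and 11. It was -0.0024 at resolution 0.5, -0.13 at resolution 2, -0.0022 without doublet removal, -0.0065 with no genes left out, -0.035 as a mean per cell, -0.068 with longer members, -0.034 without members that share their 3' end and -0.082 against Y cells of control. The endothelial ratio (0.0045) was above 0 in 10 and below 0 in 10 of 20 alternatives, from -0.060 to 0.097. The ependymal ratio became 0.046 in cells with fewer than 3 cell cycle UMIs, and Rpsa in radial glia 0.045 under the stricter filter. Over the 7 classes 2 members were 1.5-fold higher; this was 6 as a mean per cell, 4 from 20 UMIs, 1 from 200 UMIs, 7 with no minimum and 49 at 1.2-fold. In the 5 named classes it was 0, also 0 at resolutions 0.5 and 2, and 1 under the stricter filter. The 10 lower became 6 in Xist cells, 2 from 200 UMIs, 23 with no minimum and 42 at 1.2-fold, and in the named classes 4 at resolution 0.5, 6 at resolution 2 and 1 under the stricter filter. The rank correlation of class shares between libraries (0.786) was 0.929 as a mean per cell and in cells of fewer than 5000 UMIs, 0.821 from 5000 to under 10000 UMIs and 0.857 in cells with fewer than 3 cell cycle UMIs; deeper bins held too few cells. The start tract was in 22.8% at the exact base and 59.6% within 10 bases. Clusters 2 and 4 have no counterpart under other clusterings. What causes these differences between alternatives was not tested.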
